A study of Mus musculus with 6 samples.

Results

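Ketone body use was followed through 5 genes, Bdh1, Bdh2, Oxct1, Acat1 and Slc16a1, which were chosen by gene name from the 54532 genes of the count table. All 5 were present, and all 5 were among the 14774 genes that passed the filter on low counts. RNA was sequenced from left ventricular tissue, with 3 mice in TG and 3 in NTG, collected 4 weeks after aortic banding (AB), a narrowing of the aorta that overloads the ventricle. All mice of both groups were males that had AB at 8 to 10 weeks of age. TG mice (HINT2CTG-Myh6Cre in the labels) carry a HINT2 transgene behind the CAG promoter, switched on in cardiomyocytes by a Cre driven by Myh6 after tamoxifen at 5 mg/kg/d for 7 days. NTG mice are given as C57BL/6J. Tamoxifen is described for TG, and for NTG the sources used here do not state it, so that HINT2, Cre and tamoxifen cannot be told apart in this comparison. Sham-operated hearts were not analysed here, so the values compare TG with NTG under pressure overload and say nothing of the effect of AB itself.

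Ketone bodies are fuels that the liver makes from fatty acids and releases into the blood. The heart takes up 3-hydroxybutyrate and acetoacetate through the monocarboxylate transporter MCT1, encoded by Slc16a1. Inside mitochondria BDH1 oxidizes 3-hydroxybutyrate to acetoacetate, OXCT1 (also called SCOT) transfers coenzyme A from succinyl-CoA to acetoacetate, and the thiolase ACAT1 splits the acetoacetyl-CoA into acetyl-CoA for the citrate cycle. BDH2 is a 3-hydroxybutyrate dehydrogenase of the cytosol. Heart muscle is a strong consumer of ketone bodies, and the overloaded, failing heart is known to draw more on them.

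Depth was 14863568 to 17581220 counts per NTG library and 14944465 to 17235802 per TG library. Values are CPM, which put each count on a common library scale after TMM normalization, and differences are log2 fold changes of TG over NTG from edgeR's quasi-likelihood test, with p-values adjusted by Benjamini-Hochberg over all 14774. Calls needed an adjusted p below 0.05 together with a log2 fold change beyond 0.5 in either direction, which gave 0 genes higher (0% of those tested) and 0 genes lower (0%). Without adjustment, 1305 genes (8.83%) had p below 0.05 with higher values in TG, and 1442 (9.76%) with lower values. Both directions together, these 2747 genes became 4081 without NTG 1 and 1567 without NTG 2, so the share over all genes turned on these libraries as well. DESeq2 on the same counts called 228 (1.54%) higher and 355 (2.4%) lower. Hint2 itself had 57.2, 47.1 and 53.0 CPM in TG and 0.819, 28.9 and 32.3 CPM in NTG (log2 fold change 1.33, adjusted p = 0.433), and the lowest of these is 12 counts in the library labelled NTG 1. Each library was also left out in turn, and the fit without NTG 1 is singled out here because of its low Hint2 count. In that fit the log2 fold change of Hint2 was 0.77 and Hint2 was called (edgeR adjusted p = 0.0212). With voom on all 6 libraries the log2 fold change of Hint2 was 2.31 (adjusted p = 0.267). The library NTG 1 stands apart from the other NTG libraries in the targeted gene and over the whole table. Its counts differed less from each TG library (chi-square per gene 17.8 to 28.1) than from NTG 2 (71.2) or NTG 3 (33.1). Along principal component 1 (52.3% of variance) it lay at -5.08, between the TG libraries at -36.5 to -10.7 and NTG 3 and NTG 2 at 29.3 and 55.7. It was kept under its label, so the NTG means and the overlaps between groups rest in part on a library that is nearer to TG than to its own group, and the log2 fold change of each member is also given without it.

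No member was called by edgeR or by DESeq2. Acat1 alone had an unadjusted p under 0.05, which is 1 of 5 members beside 8.83% of all genes tested that were higher at that level. The log2 fold change was above 0 for 4 members and below 0 for Bdh2, with a median of 0.17 over the members and -0.0081 over all genes tested. The groups overlapped in every member, whereas every TG library lay above every NTG library in 11.2% of genes and below in 12.3%. The NTG libraries spread more widely than the TG libraries in Oxct1, Bdh1, Slc16a1 and Acat1, with coefficients of variation of 21.5% to 32% in NTG and 4.97% to 14.0% in TG. NTG 2 was the lowest of the 6 libraries in these 4 genes.

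**Figure D1:**
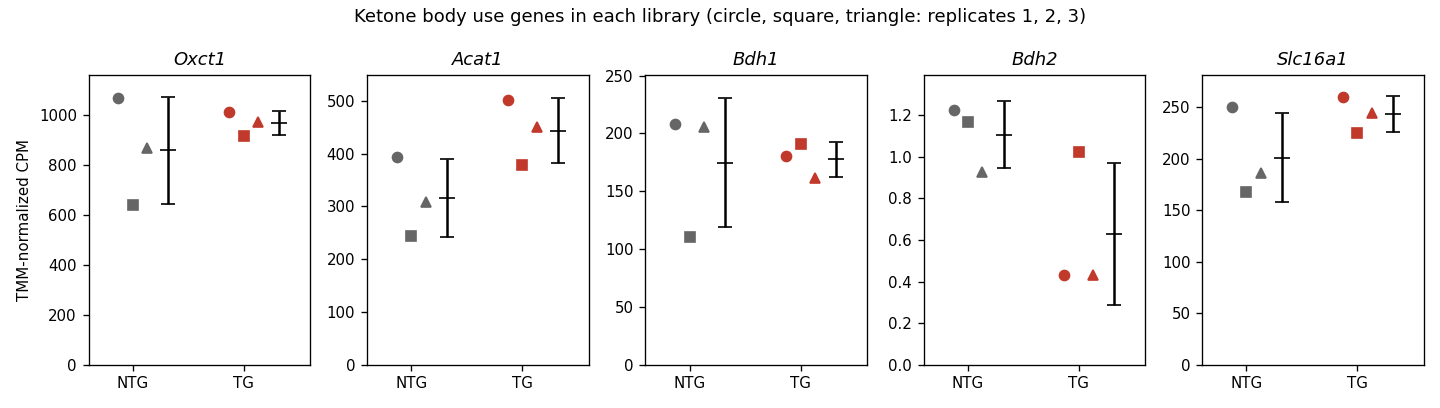
TMM-scaled CPM of each member in the 3 NTG and 3 TG libraries (points, with circle, square and triangle for replicates 1, 2 and 3), with the mean and SD of each group; each panel has its own linear axis from 0. The groups overlap in every panel, and NTG 2 lies lowest in Oxct1, Acat1, Bdh1 and Slc16a1.

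Slc16a1 (ENSMUSG00000032902, GRCm38 chromosome 3, 104638668 to 104658462, plus strand), the gene of the uptake transporter MCT1, stood at 249.7, 167.3 and 185.9 CPM in NTG and at 259.7, 225.3 and 244.4 CPM in TG. TG 1 was the highest library, NTG 2 and NTG 3 were the lowest, and NTG 1 lay within the TG range. The means were 243.1 ± 17.2 CPM in TG and 201.0 ± 43.2 CPM in NTG (SD, n = 3 each), a fold of 1.21 with a 95% interval of 0.941 to 1.56 (log2 fold change 0.27 ± 0.16 SE, edgeR adjusted p = 0.371). Without NTG 1 the log2 fold change was 0.46 (edgeR adjusted p = 0.0603), and without NTG 2 it was 0.16. The transporter missed the threshold in each case.

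The promoter of Slc16a1 is shown because it was the only member window with more than 1 of the motifs searched for, and that of Bdh1, the next step of the pathway, because its first window held none. The sequences are the bases before the first exon from RefSeq windows (GRCm38.p6) of 250 bases before to 50 after a start site, read on the plus strand, with motif matches in capitals.
Slc16a1 promoter, chr3:104638414-104638663, plus strand: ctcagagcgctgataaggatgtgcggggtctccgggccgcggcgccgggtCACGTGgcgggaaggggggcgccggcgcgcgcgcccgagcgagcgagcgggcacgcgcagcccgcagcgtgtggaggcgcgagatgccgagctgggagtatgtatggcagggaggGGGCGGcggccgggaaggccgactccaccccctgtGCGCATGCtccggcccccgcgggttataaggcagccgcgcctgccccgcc
Bdh1 promoter, chr16:31422047-31422279, plus strand: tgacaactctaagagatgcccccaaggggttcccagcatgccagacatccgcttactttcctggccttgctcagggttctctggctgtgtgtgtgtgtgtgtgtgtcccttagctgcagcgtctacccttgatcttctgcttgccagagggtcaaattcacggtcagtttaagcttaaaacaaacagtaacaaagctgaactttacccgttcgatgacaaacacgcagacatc
RefSeq gave windows for 4 of the 5 members, with 2 for Bdh1. Both strands were searched for CACGTG (an E-box), GCGCATGC (the NRF1 core), GGGCGG (a GC box), TCAAGGTCA (an estrogen-related receptor element) and AGGTCA (a nuclear receptor core, contained in the previous one). In Slc16a1 the E-box began 200 bases, the GC box 85 bases and the NRF1 core 50 bases before the start site. The share of all 32851 windows with a match was 7.15% for the E-box, 35.7% for the GC box, 2.71% for the NRF1 core, 0.423% for the receptor element and 16.3% for the core. The first Bdh1 window, the Bdh2 window and the Oxct1 window held none of these letters, and a second Bdh1 window held a GC box 15 bases after its start site. A match is a run of letters and was not tested as a binding site.

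Bdh1 (ENSMUSG00000046598, chromosome 16, 31422280 to 31458901, plus strand), the mitochondrial dehydrogenase that opens 3-hydroxybutyrate oxidation, stood at 208.4, 110.0 and 205.1 CPM in NTG and at 180.4, 190.9 and 160.9 CPM in TG. NTG 1 and NTG 3 were above every TG library and NTG 2 was below every TG library. The means were 177.4 ± 15.2 CPM in TG and 174.5 ± 55.9 CPM in NTG, a fold of 1.02 with a 95% interval of 0.694 to 1.49 (log2 fold change 0.02, edgeR adjusted p = 0.967), and the sign turned to -0.05 with library size alone as scaling, to -0.22 without NTG 2 and to -0.03 without TG 2. Without NTG 1 it was 0.17. Bdh1 ranked 14074 of the 14774 genes by p, with a small fitted difference and an interval that reached to both sides of no difference. The antisense gene Gm15743, which overlaps Bdh1, had 13 to 30 counts.

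Bdh2 (ENSMUSG00000028167, chromosome 3, 135281221 to 135304426, plus strand), the cytosolic enzyme, was close to the lower limit of what was measured, with 18, 22 and 16 counts in NTG and 6, 18 and 7 counts in TG. These are 1.23, 1.17 and 0.926 CPM in NTG and 0.433, 1.02 and 0.432 CPM in TG. TG 1 and TG 3 were the lowest libraries, and TG 2 lay within the NTG range. The fold was 0.581 with a 95% interval of 0.289 to 1.17 (log2 fold change -0.78 ± 0.44 SE, edgeR adjusted p = 0.363). The log2 fold change was -0.71 without NTG 1 and -1.34 without TG 2, with no call in either. DESeq2 gave no adjusted p for Bdh2.

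Oxct1 (ENSMUSG00000022186, chromosome 15, 4026383 to 4155344, plus strand), the enzyme that commits acetoacetate to oxidation, stood at 1070, 638.4 and 869.8 CPM in NTG and at 1012, 916.6 and 974.1 CPM in TG. NTG 1 was the highest and NTG 2 the lowest of the 6 libraries, so that the NTG range enclosed the TG range. The means were 967.6 ± 48.1 CPM in TG and 859.3 ± 215.9 CPM in NTG, a fold of 1.13 with a 95% interval of 0.829 to 1.53 (log2 fold change 0.17 ± 0.19 SE, edgeR adjusted p = 0.653). The log2 fold change was 0.36 without NTG 1 and -0.0042 without NTG 2, so that its size turned on these NTG libraries. Oxct1 overlaps the minus-strand gene BC037032, which had 23 to 65 counts per library, few beside the 12022 to 16123 counts of Oxct1.

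Acat1 (ENSMUSG00000032047, chromosome 9, 53580522 to 53610382, minus strand), the thiolase of the last step, which also ends isoleucine breakdown, stood at 393.4, 244.6 and 308.8 CPM in NTG and at 501.3, 378.2 and 450.5 CPM in TG. TG 1 and TG 3 were above every NTG library, and the groups overlapped because NTG 1 lay above TG 2. The means were 443.4 ± 61.9 CPM in TG and 315.6 ± 74.6 CPM in NTG, a fold of 1.40 with a 95% interval of 1.04 to 1.91 (log2 fold change 0.49 ± 0.19 SE, edgeR unadjusted p = 0.033 and adjusted p = 0.231, exact permutation p = 0.2). DESeq2 gave an unadjusted p of 0.0138 and an adjusted p of 0.138. By p Acat1 ranked 2107 of 14774 genes. Its log2 fold change was 0.68 without NTG 1 (edgeR adjusted p = 0.0556) and 0.34 without NTG 2, and the unadjusted p lay above 0.05 when NTG 2, NTG 3, TG 1 or TG 3 was left out.

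An exact two-sided permutation test of the mean log2 CPM gave p = 0.2 for Acat1 as for Bdh2, 0.3 for Slc16a1, 0.6 for Oxct1 and 1.0 for Bdh1, in a design where 3 libraries against 3 cannot go below 0.1.

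**Figure D2:**
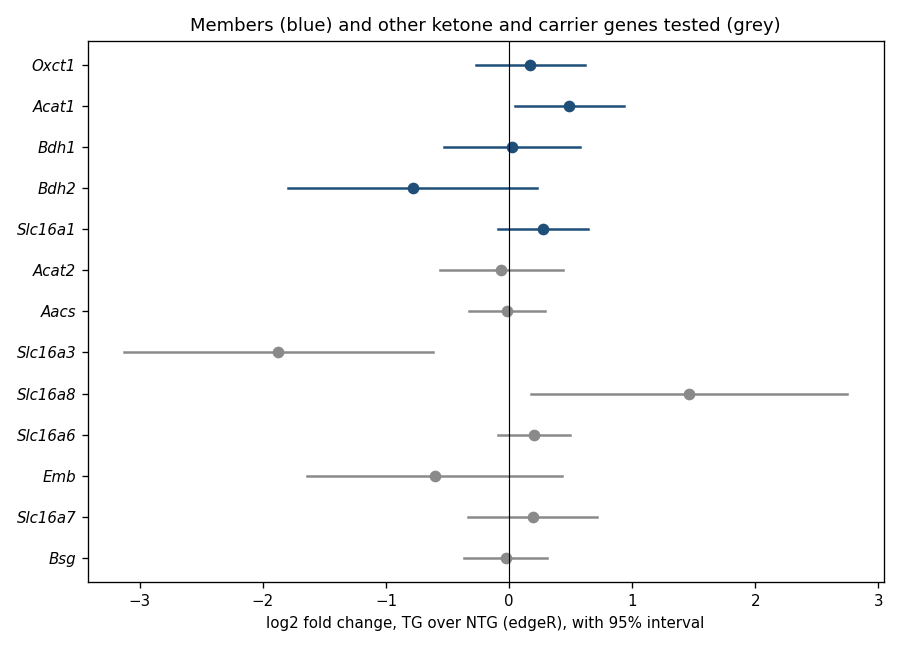
Log2 fold change of TG over NTG with its 95% interval for each member (blue) and for 8 other ketone and carrier genes tested (grey), from edgeR's quasi-likelihood fit, with the vertical line at no difference. Among the members the interval of Acat1 alone lies above 0, from 0.05 to 0.93, and that of Bdh2 is the widest.

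Per kilobase of gene length the members ordered as Oxct1, Acat1, Slc16a1, Bdh1 and Bdh2. Oxct1 had 261.5 ± 13 CPM per kilobase in TG and 232.2 ± 58.3 in NTG, and Acat1 followed with 118.0 ± 16.5 and 84.0 ± 19.9. Slc16a1 with 54.9 ± 3.90 in TG and 45.4 ± 9.77 in NTG, and Bdh1 with 45.6 ± 3.91 and 44.9 ± 14.4, were neighbours whose values overlapped in NTG, where Bdh1 exceeded Slc16a1 in NTG 3. Bdh2 had 0.148 ± 0.0803 CPM per kilobase in TG and 0.261 ± 0.0377 in NTG. The mitochondrial enzymes and the transporter were thus well measured, and Bdh2 was the only member with under 30 counts in every library.

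**Figure D3:**
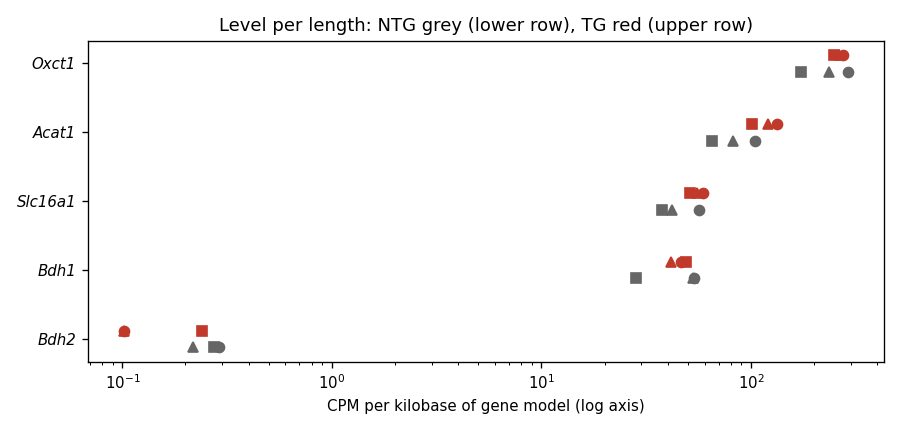
CPM per kilobase of gene length of the 5 members in the 3 NTG libraries (grey, lower row) and the 3 TG libraries (red, upper row), on a log axis, with circle, square and triangle for replicates 1, 2 and 3. The order from Oxct1 to Bdh2 is kept in 5 of the 6 libraries, and in NTG 3 Bdh1 lies above Slc16a1.

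Because the scaling between libraries cancels in a ratio of 2 genes from the same library, the raw counts of each of the 10 pairs of members were also set against each other. These ratios were chosen after the values had been seen. Acat1 over Oxct1 was 0.368, 0.383 and 0.355 in NTG and 0.495, 0.413 and 0.463 in TG, so that each TG library had more Acat1 for its Oxct1 than any NTG library. The mean ratio was 0.457 ± 0.0416 in TG and 0.369 ± 0.0141 in NTG (SD, n = 3), a log2 difference of 0.31 with an exact permutation p of 0.1, the smallest possible, and 0.25 after adjustment over the 10 pairs. It ranged from 0.25 to 0.38 with each library left out, and the groups of 4.95% of the other genes lay likewise above and 6.75% below when divided by Oxct1. Acat1 over Slc16a1 was 1.58, 1.46 and 1.66 in NTG and 1.93, 1.68 and 1.84 in TG, a log2 difference of 0.21 (0.17 to 0.27 with each library left out), again without overlap (exact p = 0.1, adjusted 0.25). Divided by Slc16a1, 3.42% of genes lay above and 13.5% below in every TG library. Acat1 over Bdh2 was likewise higher and Bdh2 over Slc16a1 lower in every TG library, with few Bdh2 counts behind them, and divided by Bdh2 25.3% of genes lay above and 0.257% below. The other 6 ratios overlapped between groups, among them Oxct1 over Slc16a1, at 4.28, 3.82 and 4.68 in NTG and 3.90, 4.07 and 3.99 in TG.

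**Figure D4:**
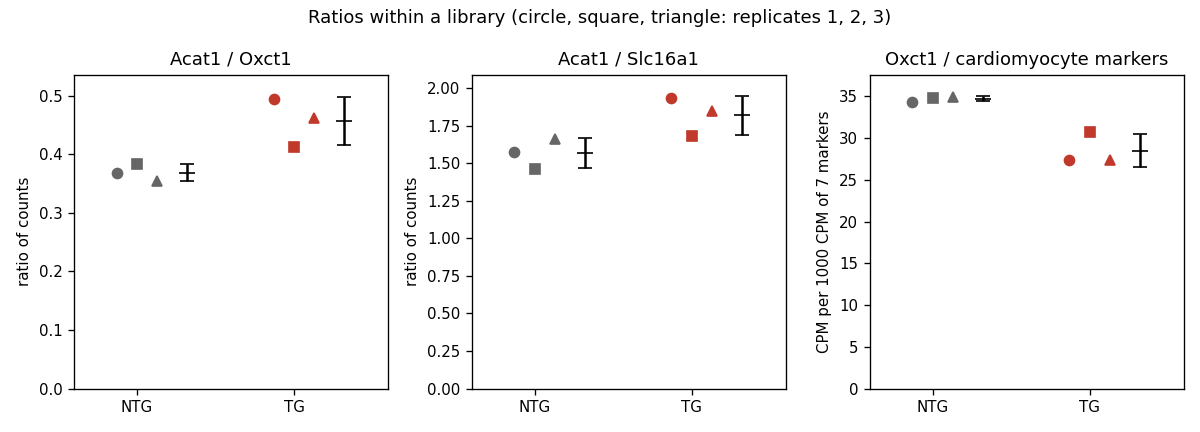
Ratios within each library, with points for the 3 NTG and 3 TG libraries (circle, square and triangle for replicates 1, 2 and 3) and the mean and SD beside them; the axes start at 0. Acat1 over Oxct1 and Acat1 over Slc16a1 lie higher in all 3 TG libraries, and Oxct1 per 1000 CPM of cardiomyocyte markers lies lower in all 3.

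The members were set beside the cell type markers, since they come from whole ventricle. Summed CPM of 7 cardiomyocyte markers was 31138, 18354 and 24873 in NTG and 36985, 29784 and 35625 in TG, and all 7 had log2 fold changes above 0 (0.21 to 0.61), with 2, Tnni3 and Myl2, at an unadjusted p under 0.05. Summed CPM of 6 fibroblast markers was 4047, 9451 and 5954 in NTG and 2241, 3429 and 1995 in TG, and 5 of the 6 were lower at that level. Macrophage markers gave 342 to 605 CPM in NTG and 243 to 336 in TG, with 3 of 5 lower, and red blood cell markers 1310 to 2245 and 762 to 908, with all 5 lower. Endothelial markers gave 1393 to 1604 and 1471 to 1616 CPM (1 of 5 higher, Kdr), smooth muscle markers 130 to 155 and 202 to 225 (3 of 4 higher) and adipocyte markers 0.0531 to 0.956 and 0.0721 to 2.53. In bulk tissue, fewer cells of a type and less RNA per cell cannot be told apart. Markers of liver, the main source of ketone bodies, gave 0.273 to 1.27 CPM in NTG and 0.216 to 1.48 in TG. Atrial markers gave 67.4, 2.18 and 2.20 CPM in NTG and 4.54, 29.2 and 167 in TG. NTG 1 and TG 3 were thus the highest of their groups, and whether atrial tissue was present in any library was not tested. NTG 2, the lowest library for 4 of the members, had the lowest cardiomyocyte and the highest fibroblast sum of the 6, and what this contributes to the members' differences was not tested.

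**Figure D5:**
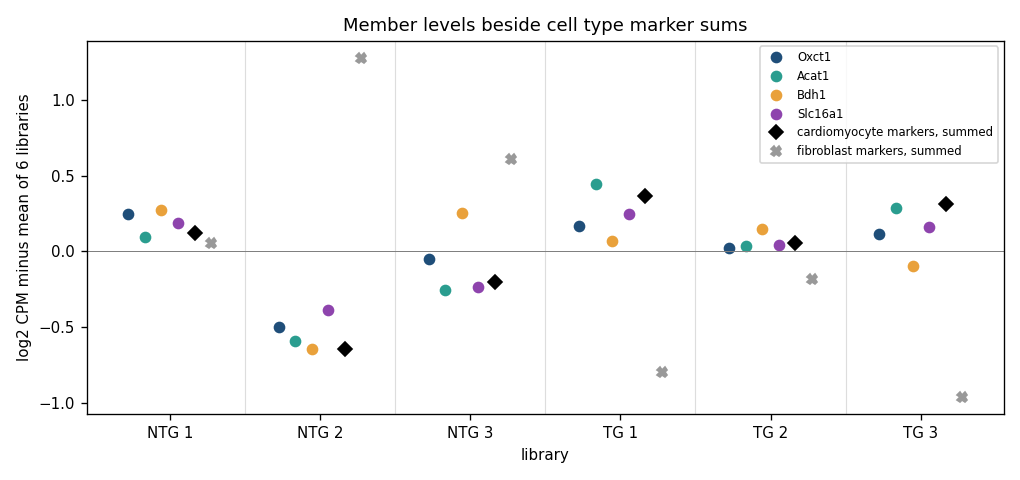
Log2 CPM of Oxct1, Acat1, Bdh1 and Slc16a1, and of the summed cardiomyocyte and fibroblast markers, each minus its mean over the 6 libraries. In NTG 2 the 4 members and the cardiomyocyte markers are low and the fibroblast markers are high.

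Per 1000 CPM of the cardiomyocyte markers, also chosen after the values had been seen, Oxct1 was 34.4, 34.8 and 35.0 in NTG and 27.4, 30.8 and 27.3 in TG, so that all TG libraries were lower (28.5 ± 1.97 against 34.7 ± 0.314, log2 difference -0.29, exact p = 0.1). That pattern was common, since 27.3% of genes lay lower and 1.38% higher in every TG library on this scale. Each single marker was also used as the divisor, and for these counts the share over all genes was not computed. All 7 markers had log2 fold changes above 0 themselves (0.21 to 0.61). A gene with a smaller log2 fold change than these thus comes out lower by the division alone. Oxct1 had a lower mean in TG with 7 of 7 single markers and separate groups with 4 of 7. Bdh1 had a lower mean with 7 of 7 and separate groups with 1. Acat1 was 12.6, 13.3 and 12.4 in NTG and 13.6, 12.7 and 12.6 in TG, which overlapped (log2 difference 0.02, exact p = 0.5). Its direction turned on the divisor, with log2 differences of -0.11 to 0.29 over the 7 single markers, all TG libraries below NTG with 2 of them and above with 2 others. Slc16a1 was lower with 5 of the 7, and separate with 2. Bdh1 (log2 difference -0.41, exact p = 0.2) and Slc16a1 (-0.19, exact p = 0.2) overlapped too, and Bdh2 was lower in all TG libraries (-1.42, exact p = 0.1).

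Other genes of the pathway were taken from 4 lists with 19 genes, of which 10 were tested, 1 was higher and 1 lower at an unadjusted p under 0.05, beside 8.83% and 9.76% of all genes tested, and the median log2 fold change was -0.02. Aacs, which activates acetoacetate for lipid synthesis, and Acat2, the cytosolic thiolase, had adjusted p of 0.961 and 0.892 by edgeR. The copies Oxct2a and Oxct2b had 0 counts in every library.

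Among the carriers, Slc16a3, which encodes the lactate exporter MCT4, had 21.2, 57.8 and 17.4 CPM in NTG and 7.93, 12.5 and 5.86 CPM in TG, with every TG library below every NTG library. Its log2 fold change was -1.87 ± 0.53 SE (edgeR adjusted p = 0.198), and DESeq2 called it lower (adjusted p = 0.00279). Slc16a8 had 0.266 to 0.579 CPM in NTG and 0.682 to 2.10 in TG, from 5 to 34 counts (log2 fold change 1.46, edgeR adjusted p = 0.23). Bsg, the chaperone that carries MCT1 to the membrane, had 1227 ± 79.8 CPM in NTG and 1203 ± 152 in TG (log2 fold change -0.03, edgeR adjusted p = 0.935). Slc16a6, Slc16a7 and the chaperone Emb had log2 fold changes of 0.20, 0.19 and -0.61 with edgeR adjusted p of 0.414, 0.670 and 0.477. The ketone receptors Hcar2 and Ffar3 and the hormone Fgf21 had too few counts to be tested.

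Over the 6 libraries, which differ together in their marker sums, Acat1 and Slc16a1 ran most alike of the members (Pearson r = 0.963 of log2 CPM), followed by Oxct1 and Slc16a1 (0.916) and Oxct1 and Acat1 (0.879). Outside the members, the closest to Acat1 were Mrpl51 (r = 0.999), Crat (0.998) and Rhot2 (0.998), but 10.2% of all genes tested reached an r over 0.9 with it. The closest to Oxct1 were Pgap2 (0.995), Rpa3 and Strap (both 0.993), with 4.07% of genes over 0.9. Slc16a1 was closest to Pdrg1 (0.999), Arfgef1 (0.997) and Antxr2 (0.996), with 7.97% over 0.9. Bdh1 ran nearest to Gen1 (0.995), Epdr1 (0.988) and Nrbp1 (0.978), and 0.684% of genes passed 0.9. Bdh2 was nearest to Dnm3os (0.991), Primpol (0.990) and Lum (0.988), with 1.73% over 0.9. These correlations rest on 6 libraries and are descriptions.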

How the data were processed

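Left ventricles of 3 TG and 3 NTG mice were profiled by poly-A RNA-seq 4 weeks after AB. The authors deposited raw gene counts, made by read cleaning, mapping, StringTie and featureCounts. The submitters' notes name HISAT2, DESeq2 and the human build GRCh38, while the mouse gene models match GENCODE M21 (GRCm38): of 54495 shared models, 53585 had the same start and end. Strand and multimapping settings are not given in the sources used here. Gene names turned into dates (27) were replaced, and 0 sample columns were left unmatched.

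The count table was analysed with edgeR 4.0.16 under R 4.3.3 (TMM, filterByExpr, robust quasi-likelihood, all 6 libraries, no covariate), tested first on simulated data. DESeq2 1.42.0 and limma 3.58.1 (voom) were alternatives, among 17 planned. log2 CPM had a prior count of 2. Total counts per library were 14863568 to 17581220. Intervals are 95% and cover counting error and spread between libraries together. The labels do not state that libraries are separate animals, so p-values measure the spread between these libraries, though the methods give n = 3 per group. Named genes were the members, Hint2, every tested gene of the first 4 lists, the 2 genes with the smallest p of each further list, and the 3 genes with the highest r to each member, except some that are not reported here. Members, lists and markers were chosen with earlier results of these data known. RefSeq promoter windows gave 1 for each of 3 members and 2 for Bdh1.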

Additional observations from a re-analysis of the deposited data

How the results depend on the processing

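No member was called under any of the 17 alternatives of scaling, filter, test, block or libraries, and Acat1 and Slc16a1 kept log2 fold changes above 0 and Bdh2 below 0 in each that tested them (Bdh2 was filtered out at 10 counts in every library). Genes called higher and lower, 0 and 0 in the reported fit, were 116 and 116 with no low-count filter, 228 and 355 with DESeq2 and 206 and 339 with the likelihood-ratio test. Leaving out each library gave 0 to 404 higher and 0 to 432 lower, the most without NTG 1 (3 and 4 without TG 2, 1 and 0 without TG 3). Members at an unadjusted p under 0.05 were 0 to 2 with a library left out (2 without NTG 1 or TG 2), beside 10.4% to 27% of all genes tested (27% without NTG 1, 19.3% without TG 2 and 18.6% with all libraries). The count of pathway-list genes higher at that level was 0 with at least 10 counts per library, 0 with voom, and 0 to 2 with a library left out. Bdh1 reversed to -0.047 with library size alone (its exact p stayed at 1), -0.22 without NTG 2 and -0.03 without TG 2, and Oxct1 to -0.0042 without NTG 2. With each library left out, Bdh1 spanned -0.22 to 0.17 and Oxct1 -0.0042 to 0.36. Per cardiomyocyte markers Oxct1 was -0.29, Bdh1 -0.41 and Slc16a1 -0.19. The cause of these shifts was not tested.

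Same-numbered libraries correlated at 0.0807, 0.173 and -0.252 in their deviations from the group means, and differently numbered ones at -0.253 to 0.167. With so few libraries the deviations within a group depend on each other, so these values cannot settle whether the numbers pair the libraries. The replicate block gave 84 genes called higher and 147 lower, with 0 members called and 2 at an unadjusted p under 0.05, beside 21.9% of all genes tested. Bdh2 rests on 6 to 22 counts per library, and its coefficient of variation was 54.2% in TG and 14.5% in NTG. How far depth and spread each limit the members was not tested.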

Other observations

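Genes that neighbour ketone oxidation, from 3 further lists, are given here as values. Of all 14774 genes tested, 7196 had log2 fold changes above 0, 8.83% were higher and 9.76% lower at an unadjusted p under 0.05, and the median was -0.0081. The 7 cardiomyocyte markers all lay above 0, at 0.21 to 0.61, and their part in the values of these lists was not tested. Of 5 other thiolases 4 were tested, all with log2 fold changes above 0 (median 0.29) and 1 at an unadjusted p under 0.05. Acaa2, the mitochondrial thiolase of fatty acid oxidation, had 330, 168 and 194 CPM in NTG and 590, 365 and 531 in TG, every TG library above every NTG library (log2 fold change 1.10 ± 0.29 SE, edgeR adjusted p = 0.196, DESeq2 adjusted p = 0.00544). Acaa1a, its peroxisomal relative, had 56.4 to 69.4 and 67.8 to 75.4 CPM (log2 fold change 0.21, edgeR adjusted p = 0.305).

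All 6 genes of succinyl-CoA supply and acetyl-CoA entry had log2 fold changes above 0 (median 0.32), 1 of them at an unadjusted p under 0.05. Suclg1, a subunit of the ligase that makes or spends succinyl-CoA, had 145 to 218 CPM in NTG and 203 to 263 in TG (log2 fold change 0.40, edgeR adjusted p = 0.265). Cs, citrate synthase, had 610 to 899 and 854 to 1059 CPM (log2 fold change 0.34, edgeR adjusted p = 0.333).

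Of 8 other Slc16 family genes tested, 2 were lower at an unadjusted p under 0.05 and the median was -0.04. Slc16a4 had 1.77 to 2.97 and 1.01 to 1.76 CPM (log2 fold change -0.82, edgeR adjusted p = 0.245).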
